A study of Mus musculus with 4 samples.

Results

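The genes described here encode the subunits of the mitochondrial respiratory chain and of ATP synthase. They were chosen by symbol, with earlier results of these data known. Taken were the Nduf subunit genes of complex I, Sdha to Sdhd of complex II, and the Uqcr genes and Cyc1 of complex III. With them came the Cox4 to Cox8 genes of complex IV, the Atp5 genes of ATP synthase (complex V), and cytochrome c. The striated muscle isoforms Cox6a2 and Cox8b were left out. Of 14860 genes with a transcript cluster of their own on the array, 53 were members: 27 of complex I, 4 of complex II, 6 of complex III, 8 of complex IV and 8 of complex V. The same rule takes 87 protein-coding genes of the RefSeq table, so 34 were not analysed here, among them Cycs, Cox5b, Cox7a1, Cox8a, Atp5g1, Atp5g2, Ndufs3 and Ndufa4. The array also has 7 clusters that carry a matching symbol together with another gene's, and these were not used.

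Complexes I to IV pass electrons from NADH and succinate to oxygen, complexes I, III and IV pump protons across the inner mitochondrial membrane, and ATP synthase uses the returning protons to make ATP. Most subunits are encoded in the nucleus, and a small hydrophobic core by mitochondrial DNA. Skeletal muscle fibres depend heavily on this machinery, and myoblasts are known to enlarge their mitochondrial network as they fuse into myotubes.

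RNA came from C2C12 cells, a mouse myoblast line, and each culture gave 1 Affymetrix whole-transcript array. The 4 groups were differentiating cells with an siRNA against MUNC (siMUNC), differentiating cells with a control siRNA, proliferating cells with siMUNC, and proliferating cells with the control siRNA. MUNC is a long noncoding RNA whose gene lies upstream of Myod1. Proliferating cells grew in high-glucose medium with 10% fetal bovine serum, and differentiating cells were collected 3 days after a change at 80% confluence to 2% horse serum. All groups share the cell line, so other lines and primary muscle are not covered. Since every group is a single array, nothing below could be tested or checked against a replicate, and a difference between groups cannot be told apart from one between single arrays or cultures. The knockdown of MUNC itself was not analysed here.

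Values are the authors' log2 expression values, and a difference of 0.5 is a 1.41-fold change. A gene counted as expressed when its mean over the 4 arrays was at or above 8.50, the median of all gene means. That left 7430 genes, 47 of them members. The 6 dim members were Ndufb11 and Ndufa1 of complex I and Cox7a2, Cox7b, Cox4i2 and Cox7b2 of complex IV. Closest to the limit were Ndufa7, just inside at a mean of 8.51, and Cox7a2, just outside at 8.43. Over all clusters the array medians ran from 7.96 to 8.03. Des (desmin), a marker of muscle cells, read between 13.17 and 13.63 on all arrays, while Ptprc (leukocytes), Adgre1 (macrophages) and Adipoq (adipocytes) read between 4.81 and 5.36. Other markers of these cell types were brighter, among them Cd68, Cd14, Pparg and Dio2, and their values stand beside the muscle markers.

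Setting siMUNC against the control siRNA in differentiating cells asks whether loss of MUNC goes with another expression level during differentiation, and there many subunit genes read slightly lower. Of the 47 expressed members, 40 were lower in siMUNC cells, against 43.4% of all expressed genes. Their median difference was -0.19, while that of all expressed genes was 0.04. Single differences were small: 17 members were at or below -0.25 (15.2% of all expressed genes) and 1 at or below -0.5 (6.15%), whereas 1 member was at or above 0.25 (23.0%) and 0 at or above 0.5 (9.02%). The median expressed member read 10.74 in siMUNC and 10.99 in control differentiating cells, and 11.02 in siMUNC and 10.99 in control proliferating cells.

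Seen across the 4 arrays, 32 of the 47 expressed members had their lowest value in siMUNC differentiating cells, against 17.9% of all expressed genes. None of the 47 had its highest value there, against 17.2%. The highest value lay in control differentiating cells for 19 members, in siMUNC proliferating cells for 17 and in control proliferating cells for 11. For all 7430 expressed genes these counts were 1926, 1783 and 2445, in the same order. Control differentiating cells held the lowest value for 7 of the 47 members and for 3152 of the 7430 expressed genes. The distance between a member's highest and lowest array ran from 0.13 to 0.62, with a median of 0.34, and the median over all expressed genes was 0.43.

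**Figure D1:**
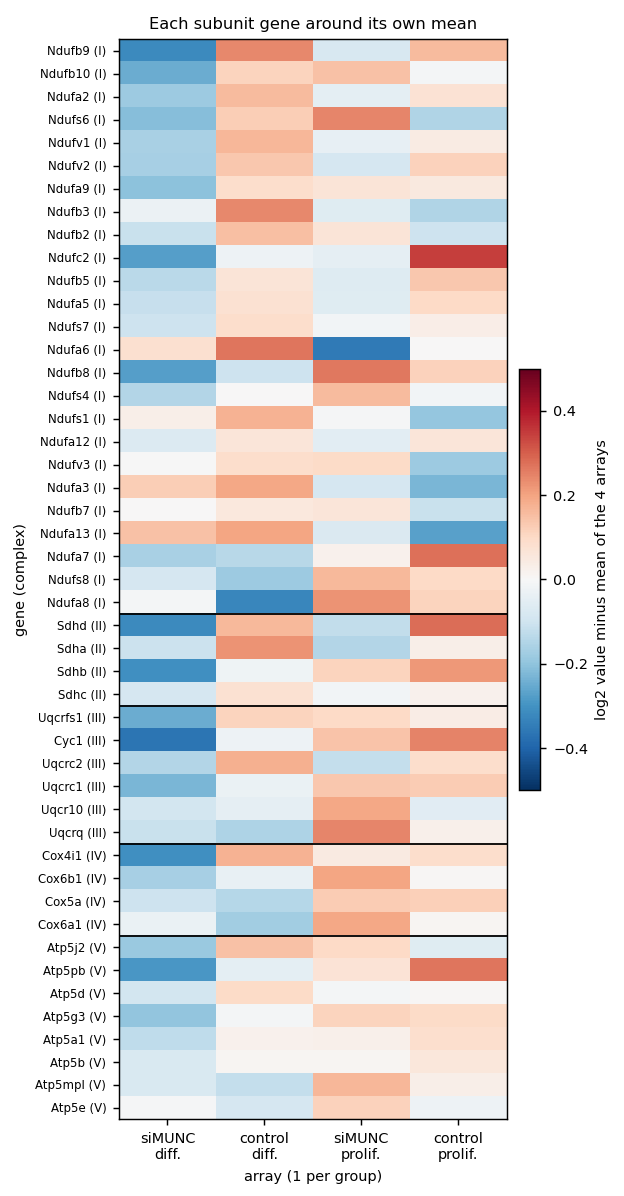
Colour gives the log2 value of each of the 47 expressed subunit genes (down the page, by complex, with the lowest siMUNC difference in differentiating cells at the top of each complex) minus that gene's mean over the 4 arrays; columns are the 4 arrays, 1 per group. The column of siMUNC differentiating cells holds the lowest value for 32 of the 47 genes.

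Complex I, the NADH dehydrogenase, contributed 23 of its 25 expressed members to those lower in siMUNC differentiating cells, with a median of -0.19. Its matrix arm, which takes up the electrons, had 13 of 14 lower (median -0.19), and its membrane arm, which pumps the protons, 10 of 11 (median -0.20), so the shift was seen in both arms. Ndufb9, an accessory subunit of the membrane arm, read 11.80 in siMUNC and 12.36 in control differentiating cells, and 12.04 in siMUNC and 12.28 in control proliferating cells. It was the only expressed member past -0.5 in this comparison (-0.56, 1.47-fold lower), and it was also lower with siMUNC in proliferating cells (-0.24).

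Ndufv1, which binds NADH and the flavin, read 11.17 in siMUNC and 11.50 in control differentiating cells, and 11.29 in siMUNC and 11.37 in control proliferating cells. Ndufv2, an iron-sulfur subunit beside it, read 12.43 and 12.74 in siMUNC and control differentiating cells, and 12.52 and 12.72 in siMUNC and control proliferating cells. Both had their lowest array in siMUNC differentiating cells, by -0.33 and -0.30 from control. The other core subunits measured were lower by less or not at all. Ndufs1, the largest iron-sulfur subunit, differed by -0.15 (10.70 in siMUNC and 10.85 in control differentiating cells), and Ndufs7, near the ubiquinone site, by -0.19 (13.52 and 13.71). Ndufs8, which carries the neighbouring iron-sulfur clusters, was higher by 0.10 (12.66 in siMUNC and 12.56 in control differentiating cells).

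Among the accessory subunits, Ndufb10 read 8.71 in siMUNC and 9.07 in control differentiating cells, and 9.10 in siMUNC and 8.95 in control proliferating cells. Ndufa2 differed by -0.34 (10.30 in siMUNC and 10.64 in control differentiating cells) and Ndufa9, at the junction of the arms, by -0.29 (10.57 and 10.86). The remaining complex I members below 0 lay between -0.34 and -0.02, with Ndufa7 nearest to 0. The dim Ndufa1 read 7.47 in siMUNC and 7.04 in control differentiating cells, and 7.03 in siMUNC and 7.14 in control proliferating cells, and the dim Ndufb11 read 7.08 in siMUNC and 7.47 in control differentiating cells. Ndufa8, a subunit of the intermembrane-space face, went the other way: it read 11.37 in siMUNC and 11.06 in control differentiating cells, and 11.61 in siMUNC and 11.49 in control proliferating cells. Its difference of 0.32 was the highest of the 47, and its lowest array was that of control differentiating cells.

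Ndufs6, a zinc-binding subunit of the matrix arm, had the widest gap between its siMUNC differences in the 2 states. It read 9.23 in siMUNC and 9.57 in control differentiating cells, and 9.69 in siMUNC and 9.29 in control proliferating cells. With siMUNC it was thus lower in differentiating cells (-0.34) and higher in proliferating cells (0.40).

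Complex II, succinate dehydrogenase, links the citric acid cycle to the chain, and all of its 4 genes were lower in siMUNC differentiating cells (median -0.31). Sdhd, a membrane anchor, read 10.97 in siMUNC and 11.45 in control differentiating cells, and 11.17 in siMUNC and 11.57 in control proliferating cells. It was lower with siMUNC in both states (-0.48 and -0.40). Sdha, the flavoprotein that oxidises succinate, read 11.67 in siMUNC and 12.01 in control differentiating cells, and 11.63 in siMUNC and 11.81 in control proliferating cells. Its lowest array was that of siMUNC proliferating cells. Sdhb, the iron-sulfur subunit, differed by -0.29 (11.02 in siMUNC and 11.31 in control differentiating cells) and Sdhc, the other anchor, by -0.16 (10.74 and 10.90).

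Complex III, the cytochrome bc1 complex, had 5 of 6 members lower in siMUNC differentiating cells (median -0.26). Uqcrfs1, the Rieske iron-sulfur protein, read 8.47 in siMUNC and 8.82 in control differentiating cells, and 8.82 in siMUNC and 8.75 in control proliferating cells. Cyc1, cytochrome c1, read 10.65 in siMUNC and 10.99 in control differentiating cells, and 11.15 in siMUNC and 11.26 in control proliferating cells. Uqcrfs1 and Cyc1 were thus both lowest in siMUNC differentiating cells, by -0.36 and -0.34 from control. The core proteins Uqcrc2 (-0.33) and Uqcrc1 (-0.19) were lower as well. The small subunits Uqcr10 (-0.05) and Uqcrq (0.04) lay next to 0.

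Complex IV, cytochrome c oxidase, was split, with 2 of 4 expressed members lower in siMUNC differentiating cells and a median of -0.04. Cox4i1, the common isoform of the largest nuclear-encoded subunit, read 10.68 in siMUNC and 11.16 in control differentiating cells, and 11.03 in siMUNC and 11.07 in control proliferating cells. Its value in siMUNC differentiating cells stood apart below the other 3 arrays, and it was 1.40-fold lower than in control. Cox6b1, which joins the oxidase monomers, differed by -0.13 (12.39 in siMUNC and 12.52 in control differentiating cells). Cox5a (0.04) and Cox6a1, the non-muscle isoform of subunit 6a (0.14), were not lower. Cox6a1 read 11.72 in siMUNC and 11.57 in control differentiating cells, and 11.94 in siMUNC and 11.76 in control proliferating cells, so its order across the arrays was unlike that of Cox4i1.

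The muscle isoforms outside the rule differed far more. Cox6a2 read 9.61 in siMUNC and 11.15 in control differentiating cells (-1.54), and 7.97 in siMUNC and 8.01 in control proliferating cells. Cox8b read 10.32 in siMUNC and 11.42 in control differentiating cells (-1.10), and 7.34 in siMUNC and 7.27 in control proliferating cells. The dim isoforms were read at low levels on every array: Cox4i2, a lung and hypoxia-linked isoform, between 6.87 and 7.26, Cox7b between 6.98 and 7.35, and Cox7b2 between 3.65 and 3.77. Cox7a2, the common isoform of subunit 7a, lay just below the limit and read 8.20 in siMUNC and 8.26 in control differentiating cells, against 8.65 in siMUNC and 8.60 in control proliferating cells.

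Complex V, ATP synthase, had 6 of 8 members lower in siMUNC differentiating cells (median -0.17). Atp5j2, subunit f of the membrane part, read 9.48 in siMUNC and 9.82 in control differentiating cells, and 9.77 in siMUNC and 9.61 in control proliferating cells. It had the lowest difference of the complex (-0.33). Atp5b, the catalytic beta subunit, read 13.63 in siMUNC and 13.71 in control differentiating cells, and 13.71 in siMUNC and 13.76 in control proliferating cells. Atp5a1, the alpha subunit, differed by -0.15, Atp5d of the rotor stalk by -0.19, Atp5g3 of the c-ring by -0.19 and Atp5pb of the peripheral stalk by -0.24. Atp5e, the epsilon subunit of the stalk (0.08), and Atp5mpl, a small membrane proteolipid (0.04), stood just above 0.

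**Figure D2:**
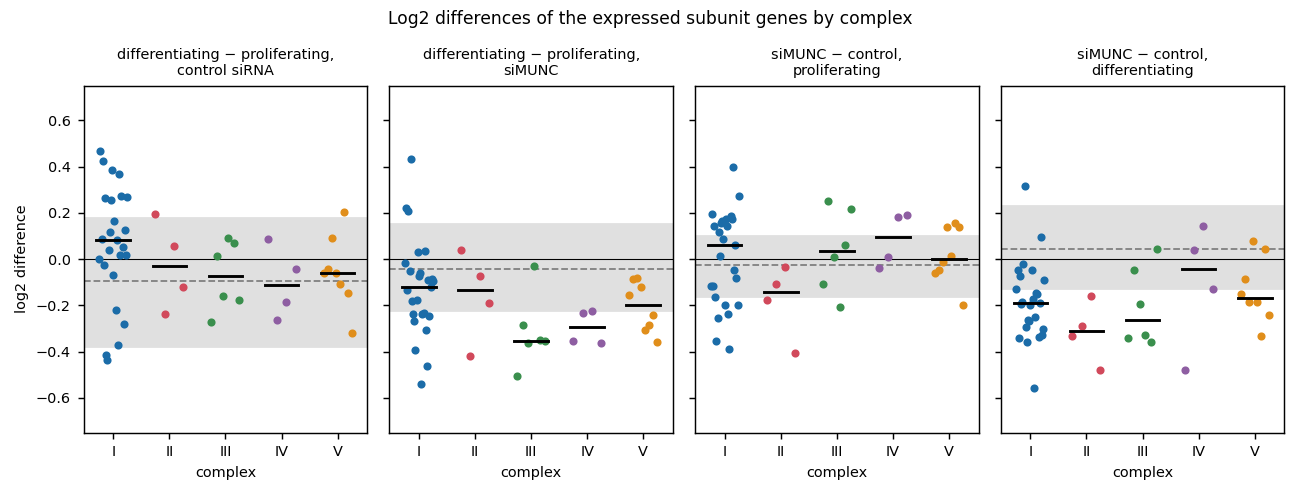
Points are the log2 differences of the 47 expressed subunit genes, 1 point per gene, in columns by complex and panels by comparison, and black bars are the medians of each complex; the grey band is the middle 50% of all 7430 expressed genes and the dashed line their median. In the panel of siMUNC minus control in differentiating cells 40 of the 47 points lie below 0, and in that for proliferating cells 22 do.

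In proliferating cells the same comparison of siRNAs gave no common direction. Of the 47 expressed members 22 were lower with siMUNC, against 55.7% of all expressed genes, and the median was 0.01, against -0.03 for all expressed genes. For the 33 members in the top 20% of gene means that median was -0.03. None was past 0.5 in either direction (1.36% of all expressed genes higher and 4.10% lower), 4 were at or below -0.25 (15.7%) and 2 at or above 0.25 (8.41%). Complex II was the exception in sign, with 4 of 4 lower (median -0.14), while complexes I, III and IV had medians of 0.06, 0.03 and 0.10 and complex V of -0.00, which lay above 0 under at least 1 other scaling. At the lower end were Sdhd (-0.40), Ndufc2 (-0.39) and Ndufa6 (-0.35), then Ndufa7 (-0.25) and Ndufb9 (-0.24). Ndufc2, a membrane-arm subunit, read 11.83 in siMUNC and 12.22 in control proliferating cells. Ndufa6, an accessory subunit of the matrix arm, read 10.13 in siMUNC and 10.48 in control proliferating cells. At the upper end, beside Ndufs6, were Ndufv3, an accessory flavoprotein subunit (0.27), and Uqcr10 (0.25), then Uqcrq (0.22) and Ndufa13 (0.20). The dim Ndufb11 read 7.32 in siMUNC and 8.18 in control proliferating cells, the widest difference of any member (-0.86), and an offset of 50 on the linear scale reduced it to -0.70.

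The siRNA differences of the 2 states share no array and can be set side by side. Of the 47 expressed members 7 were above 0 in both states, 22 below 0 in both, 18 above 0 in proliferating and below 0 in differentiating cells, and 0 the reverse. Among all 7430 expressed genes 952 were above 0 in proliferating and below 0 in differentiating cells, and 1864 the reverse. Across the 47 members the differences in the 2 states had a Pearson correlation of 0.41, and across all expressed genes 0.31, as a description only, since the genes of 1 array share its scaling and are not independent.

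**Figure D3:**
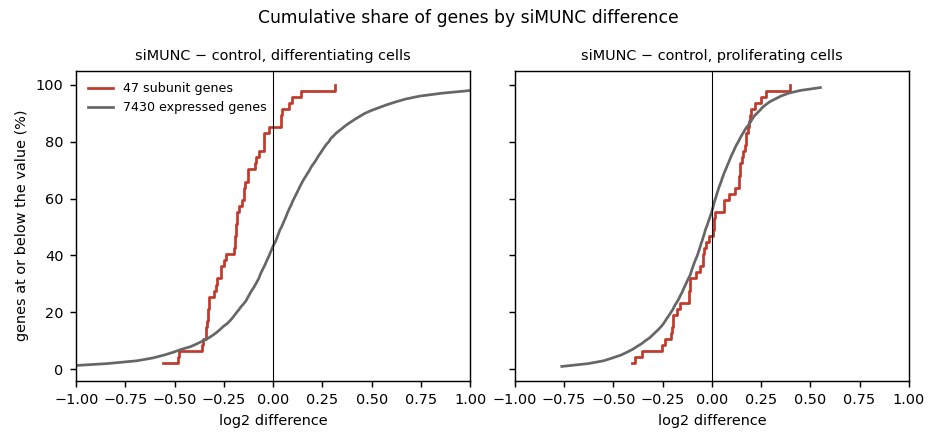
The red step line gives the cumulative percentage of the 47 expressed subunit genes, and the grey line that of all 7430 expressed genes from the first to the ninety-ninth percentile, against the siMUNC minus control log2 difference in differentiating cells (left) and proliferating cells (right). In differentiating cells the red line runs left of the grey one except at its lowest values, with medians of -0.19 and 0.04, and in proliferating cells the medians are 0.01 and -0.03.

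Differentiation of control cells left most subunit genes near their proliferating level. Of the 47 expressed members 25 were higher in differentiating control cells, against 40.1% of all expressed genes, with a median of 0.02, against -0.10. None was past 0.5 either way, although 10.5% of all expressed genes were higher and 17.9% lower by that much; 8 members were at or above 0.25 (20.6%) and 7 at or below -0.25 (35.0%). After cyclic loess 32 of 47 were higher and 15 lower. Complex I leaned upward, with 17 of 25 above 0 (median 0.08). Ndufa13, also known as GRIM-19, read 10.70 in differentiating and 10.23 in proliferating control cells, the widest upward difference (0.47). Next were Ndufa3 (0.42), Ndufb3 (0.39), Ndufs1 (0.37) and Ndufs6 (0.27). Ndufa3 read 11.34 in differentiating and 10.92 in proliferating control cells, and Ndufs1 read 10.85 and 10.48. On the lower side were Ndufa8 (-0.44), Ndufa7 (-0.41), Ndufc2 (-0.37), Atp5pb (-0.32) and Ndufs8 (-0.28). Complexes II to V had medians of -0.03, -0.07, -0.11 and -0.06, and those of II, III and V turned to above 0 under at least 1 other scaling of the arrays.

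In siMUNC cells the same step from proliferating to differentiating cells went with lower values. It takes the same array of siMUNC differentiating cells as the siRNA comparison and the count of lowest arrays above, so it is not a separate result. Of the 47 expressed members 41 were lower in differentiating siMUNC cells, against 56.8% of all expressed genes, with a median of -0.19, against -0.04. At or below -0.5 were 2 members (7.58% of all expressed genes), and at or above 0.5 were 0 (7.35%), while 16 were at or below -0.25 (22.6%) and 1 at or above 0.25 (16.9%). Ndufb8, a membrane-arm subunit often used as an indicator of assembled complex I, read 9.78 in differentiating and 10.31 in proliferating siMUNC cells (-0.54). Cyc1 differed by -0.51, Ndufs6 by -0.46, Sdhb by -0.42 and Ndufb10 by -0.39. All 6 members of complex III, all 4 of complex IV and all 8 of complex V were below 0, with medians of -0.35, -0.29 and -0.20. Ndufa6 was the exception on the upper side, at 10.56 in differentiating and 10.13 in proliferating siMUNC cells (0.43), and Ndufa13 (0.22) and Ndufa3 (0.21) followed, with Sdha (0.04) and Ndufs1 (0.03) next to 0.

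The differentiation steps of siMUNC and control cells also share no array. In 6 members the difference was above 0 in both and in 22 below 0 in both. In 19 it was below 0 in siMUNC and above 0 in control cells, and in 0 the reverse. Among all 7430 expressed genes 2353 were above 0 in both and 3592 below 0 in both. Below 0 in siMUNC and above 0 in control cells were 626, and 858 were the reverse. Across the 47 members the differences correlated at 0.56 and across all expressed genes at 0.85, again as a description.

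The difference of the differentiation effects, siMUNC minus control, takes all 4 arrays, so it repeats the values above in another form. It was below 0 for 41 of the 47 expressed members, against 39.4% of all expressed genes, with a median of -0.18, against 0.06. At or below -0.5 were Ndufs6 (-0.73) and Ndufb10 (-0.51), 2 members against 4.02% of all expressed genes, and 0 were at or above 0.5 (10.0%). At or below -0.25 were 15 (12.2%) and at or above 0.25 were 0 (25.3%). Next came Atp5j2 (-0.49), Cox4i1 (-0.44), Ndufb2, a membrane-arm subunit (-0.43), and Uqcrfs1 (-0.42). Above 0 were 5 of the 25 complex I members, led by Ndufa7 (0.23), Ndufa8 (0.20) and Ndufa6 (0.17), then Ndufc2 (0.14) and Ndufs8 (0.04), and 1 of complex IV, Cox5a (0.03). All members of complexes II, III and V were below 0.

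The direction of the members in differentiating cells held under each scaling tried: 40 of 47 were lower with siMUNC when the arrays were centred, quantile normalized, put through cyclic loess or given an offset, with medians between -0.24 and -0.18. In the top 20% of gene means the median of the 33 members there was -0.19.

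Promoters are shown for 4 members, because many members lay lower together and the ends of their range can be compared: Sdhd and Uqcrfs1, the lowest siMUNC differences in differentiating cells among expressed members with a single listed promoter, Ndufs6, the lowest difference of effects, and Ndufa8, the highest siMUNC difference. The sequences are those of RefSeq on GRCm38.p6, from 250 bases before to 50 bases after the gene's start, and 37 of the 47 expressed members had one or more, 40 in all. Capitals mark matches, on either strand, to the core motifs of factors known to act on respiratory genes, NRF1 (GCATGCGC), ETS factors such as GABP (CCGGAAG), YY1 (AAGATGGCG) and estrogen-related receptors (AAGGTCA), and to the E-box preferred by MyoD (CAGCTG). No motif contains another.
Sdhd, chr9:50603800-50604099, minus strand: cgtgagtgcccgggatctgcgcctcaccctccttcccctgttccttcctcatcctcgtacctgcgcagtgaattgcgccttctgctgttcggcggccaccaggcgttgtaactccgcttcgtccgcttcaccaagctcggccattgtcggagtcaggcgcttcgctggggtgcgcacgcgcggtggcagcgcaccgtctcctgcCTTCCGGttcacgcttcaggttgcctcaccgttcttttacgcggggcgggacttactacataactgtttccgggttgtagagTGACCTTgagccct
Uqcrfs1, chr13:30545267-30545566, minus strand: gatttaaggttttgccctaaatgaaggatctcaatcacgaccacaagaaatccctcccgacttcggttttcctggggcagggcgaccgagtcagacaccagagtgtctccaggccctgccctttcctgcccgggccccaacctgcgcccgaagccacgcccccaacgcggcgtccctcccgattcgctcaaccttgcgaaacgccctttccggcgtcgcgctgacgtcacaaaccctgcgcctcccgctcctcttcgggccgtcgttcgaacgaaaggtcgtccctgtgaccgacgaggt
Ndufs6, chr13:73328433-73328732, minus strand: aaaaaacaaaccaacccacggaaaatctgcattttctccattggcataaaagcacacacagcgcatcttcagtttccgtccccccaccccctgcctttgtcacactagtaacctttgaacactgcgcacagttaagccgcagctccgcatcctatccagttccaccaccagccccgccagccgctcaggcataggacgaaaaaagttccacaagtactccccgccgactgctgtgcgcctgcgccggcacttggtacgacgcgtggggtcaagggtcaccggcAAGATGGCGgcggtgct
Ndufa8, chr2:36049289-36049588, minus strand: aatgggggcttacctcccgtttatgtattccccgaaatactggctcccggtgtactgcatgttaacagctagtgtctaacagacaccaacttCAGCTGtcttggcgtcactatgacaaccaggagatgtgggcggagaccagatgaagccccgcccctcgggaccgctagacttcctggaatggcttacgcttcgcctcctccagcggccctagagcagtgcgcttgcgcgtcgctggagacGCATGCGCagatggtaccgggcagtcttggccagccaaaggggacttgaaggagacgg

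In these windows Sdhd held an ETS match and an estrogen-related receptor match, and Ndufs6 a YY1 match just after the start. Ndufa8 held an NRF1 match and an E-box, and Uqcrfs1 none of the 5. Only exact strings were searched, and variants of a core were left unmarked. Sdhd, for example, also holds GCACGCGC, the NRF1 core with C in place of its T. Over the 40 member promoters the shares were 12.5% for NRF1, 17.5% for ETS, 12.5% for YY1, 10.0% for estrogen-related receptors and 10.0% for the E-box. Over all 32851 promoters of the table they were 2.71%, 8.86%, 1.40%, 4.72% and 16.3%. That full set was not limited to expressed genes, and the NRF1 core was set after the sequences were seen. The NRF1 shares and medians cover that exact string alone. The 5 members with a YY1 match (Atp5j2, Ndufa9, Ndufs4, Ndufs6 and Ndufs7) had siMUNC differences in differentiating cells between -0.34 and -0.15, inside the range of -0.48 to 0.32 of the 32 without one. Their median was -0.29, against -0.19 without. The 7 members with an ETS match had a median of -0.05, against -0.19 for the 30 without, the 4 with an estrogen-related receptor match -0.23, against -0.19, the 5 with an NRF1 match -0.18, against -0.19, and the 4 with an E-box -0.19, against -0.19. These are medians of few genes, with no test. A match is a string of letters and not a bound site.

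Other genes of mitochondrial energy metabolism, taken as lists, leaned the same way in differentiating cells. Unlike the members, these lists and those below were counted over all measured genes, dim ones included. Of all 14860 genes, dim ones included, 48.0% were lower with siMUNC in differentiating cells. Of the 12 measured citric acid cycle genes 10 were lower with siMUNC (median -0.21), led by Sucla2, a succinyl-CoA synthetase subunit (10.63 in siMUNC and 11.16 in control differentiating cells), and Idh3a (-0.38), while Mdh2 was at 0.09 and Idh2 at 0.01. Of 21 genes of pyruvate dehydrogenase and fatty acid oxidation 19 were lower (median -0.28), with the carnitine carrier Slc25a20 (-0.76) and Echs1 (-0.59) lowest and Pdk3 (0.60) and Cpt1a (0.24) highest. Coenzyme Q synthesis had 9 of 10 lower (median -0.23), with Coq8a, a regulator of the pathway, at 8.72 in siMUNC and 10.52 in control differentiating cells (-1.80), then Coq9 (-0.36), while Coq8b (0.01) and Coq7 (-0.07) were highest. In proliferating cells 55.7% of all expressed genes, and 43.1% of all genes with dim ones included, were lower with siMUNC. There 10 of 12 citric acid cycle genes were lower (median -0.11). So were 16 of 21 of pyruvate dehydrogenase and fatty acid oxidation (median -0.09) and 5 of 10 of coenzyme Q synthesis (median -0.03).

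Assembly factors of the complexes had 25 of 38 lower (median -0.12). Uqcc1 of complex III (-0.79) and Cox19 of complex IV (-0.59) were lowest, and Atpaf1 of ATP synthase (0.28) and Surf1 of complex IV (0.23) highest. Carriers, pores and cristae genes had 10 of 15 lower (median -0.10), with Mfn2, a mitochondrial fusion protein (-0.67), and the dim Ckmt2 (-0.66) lowest and the nucleotide carrier Slc25a4 (0.17) and Phb2 (0.06) highest. Glycolysis had 8 of 11 lower (median -0.10), from Pfkm, the muscle phosphofructokinase (-1.08), and Pfkp (-0.70) to Pfkl (0.40) and Hk1 (0.42). Hypoxia-inducible genes were divided, with 8 of 14 lower (median -0.02), from the dim Car9 (-1.11) and Vegfa (-0.23) to P4ha2 (0.39) and Ddit4 (0.85). With siMUNC in proliferating cells, 27 of 38 assembly factors (median -0.05) and 10 of 15 carriers, pores and cristae genes (median -0.06) were lower. So were 5 of 11 glycolysis genes (median 0.02) and 6 of 14 hypoxia-inducible genes (median 0.00). The lean of assembly factors and carriers was thus not limited to differentiating cells.

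Regulators of mitochondrial biogenesis did not lean that way, with 7 of 18 lower (median 0.05). The coactivators Ppargc1b and Ppargc1a were the lowest of that list, and Pprc1, of the same family, was at 0.11 (9.26 in siMUNC and 9.15 in control differentiating cells). Ppargc1b read 8.75 in siMUNC and 9.73 in control differentiating cells, and 8.48 in siMUNC and 8.92 in control proliferating cells. Ppargc1a, below the level counted as expressed, read 7.86 in siMUNC and 8.49 in control differentiating cells, and 7.30 in siMUNC and 7.53 in control proliferating cells. Ppargc1b and Ppargc1a were highest in control differentiating cells. The transcription factors Nrf1 (0.08) and Gabpa (0.08) and the mitochondrial factor Tfam (-0.06) lay near 0, and Sp1 (0.28) and Polg (0.25) were highest.

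**Figure D4:**
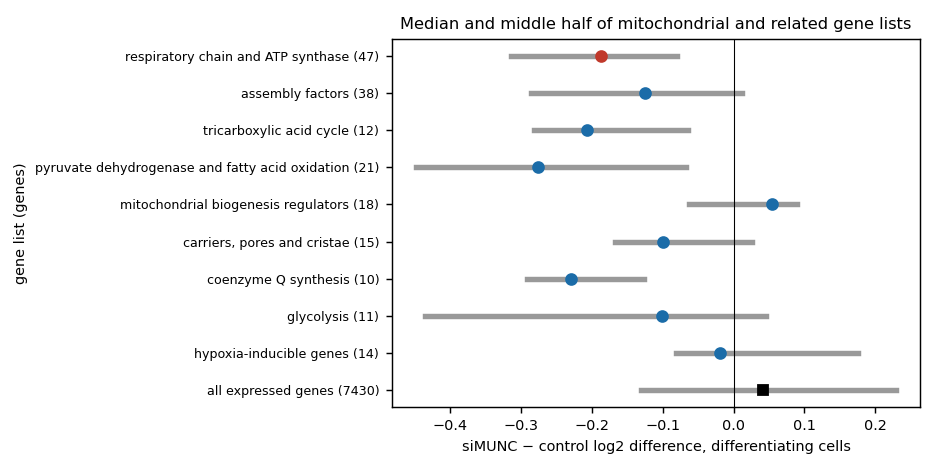
Points are medians and grey bars the middle 50% of the siMUNC minus control log2 differences in differentiating cells, for the 47 expressed subunit genes, 8 lists of related genes (number of genes in brackets) and all 7430 expressed genes. The 8 lists hold all their measured genes, dim ones included. The subunit genes (-0.19), citric acid cycle (-0.21), coenzyme Q (-0.23) and fatty acid oxidation (-0.28) lists have their middle 50% below 0, and the biogenesis regulators (0.05) lie around the median of all expressed genes (0.04).

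Muscle markers differed between the same arrays. Of 11 measured, all expressed, 9 were lower in siMUNC differentiating cells (median -0.84), against 43.4% of all expressed genes. They ran from Mef2c (-2.05) and Myog (-1.64) to Cdh15 (0.12) and Myf5 (0.62). The log2 of their summed signal was 15.41 in siMUNC and 16.11 in control differentiating cells, and 14.17 in siMUNC and 14.23 in control proliferating cells. Their part in the lower subunit values was not tested, and in RNA of a whole culture fewer differentiated cells and less RNA per cell cannot be told apart. Markers of other cell types were mostly dim, with exceptions. Cd68, a lysosomal protein abundant in macrophages, read 8.58 in siMUNC and 8.10 in control differentiating cells, and 8.63 in siMUNC and 8.77 in control proliferating cells. Cd14 read 8.43 in siMUNC and 7.63 in control differentiating cells, and 8.65 in siMUNC and 8.67 in control proliferating cells. Both were thus higher with siMUNC in differentiating cells (0.48 and 0.80), while the other 7 macrophage markers differed by -0.24 to 0.21. Of the brown adipocyte markers, Pparg read 10.20 in siMUNC and 10.28 in control differentiating cells, and 10.88 in siMUNC and 11.11 in control proliferating cells. Dio2, the deiodinase that activates thyroid hormone, read 8.97 in siMUNC and 10.54 in control differentiating cells (-1.57), and 8.03 in siMUNC and 7.54 in control proliferating cells. The part of these markers in the subunit values was not tested either. Expressed were 1 of 9 macrophage markers (summed signal 10.22 in siMUNC and 9.90 in control differentiating cells, and 10.30 and 10.31 in siMUNC and control proliferating cells), 2 of 9 brown adipocyte markers (11.21 and 11.73, and 11.49 and 11.54), 0 of 8 endothelial markers (9.37 and 9.39, and 9.33 and 9.05) and 3 of 7 cardiomyocyte markers (12.84 and 13.45, and 11.78 and 11.86), among them Tnnt2, which developing skeletal muscle also expresses. The other expressed cardiomyocyte markers were Gata4, between 9.64 and 9.92 on all arrays, and Nkx2-5, between 8.74 and 9.02. Of the brown adipocyte markers below the expressed limit, Plin1 read between 8.18 and 8.63. Ucp1, the defining gene of brown fat, read between 6.26 and 6.62 on all arrays.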

How the data were processed

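RNA of 4 C2C12 cultures, 1 per group, was hybridised to Affymetrix whole-transcript arrays. The deposited log2 values, 1 per transcript cluster and array, were made by the authors. The submitters' processing notes name Affymetrix Expression Console. Version, settings, normalization and build were not given in the sources used here. That values are log2 was inferred from the range of 2.56 to 14.3. No detection calls were used, and background is judged by level alone.

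Clusters were named through the platform annotation. Of 23332 clusters 14996 had a single gene, and a gene with several was represented by that with the highest mean over the 4 arrays. No member had several. All 53 members were found in RefSeq (GRCm38.p6), which also lists 18 pseudogenes under symbols the rule takes. Probes shared with such copies cannot be told apart here.

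Comparisons are log2 differences of single arrays. Genes were counted by sign and past 0.5, among genes whose mean reached the median over genes. The related lists and marker lists were instead counted over all their measured genes. The limit of 0.5 was set with earlier results of these data known, which showed the subunit genes to move little. Counts past 0.25 were added after the data were seen. The members, the complex I arms, 8 lists of related genes (assembly factors, citric acid cycle, pyruvate dehydrogenase and fatty acid oxidation, biogenesis regulators, carriers and cristae, coenzyme Q, glycolysis, hypoxia) and 5 marker lists (muscle, macrophage, brown adipocyte, endothelial, cardiomyocyte) were chosen with earlier results of these data known. Members named with values are the 5 highest and 5 lowest of each comparison, those past 0.5, the isoform groups and the core subunits, and from each list the 2 highest and 2 lowest. Motifs were counted in RefSeq promoters, and the NRF1 core was set after the sequences were seen. Alternatives were centring, quantile normalization, cyclic loess (limma 3.58.1 in R 4.3.3), an offset of 50, no filter, the top 20% of gene means, the mean of a gene's clusters and structural subunits alone. The calculation was tested on simulated data. Python 3.11.15 and pandas 2.3.3 were used.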

Additional observations from a re-analysis of the deposited data

Results flagged for a closer look

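The median difference over the 47 expressed subunit genes was on opposite sides of 0 in the 2 siRNA groups on differentiation (-0.19 in siMUNC cells and 0.02 in control cells, a gap of -0.21), and in the 2 states under siMUNC (-0.19 in differentiating and 0.01 in proliferating cells, a gap of -0.20). The opposite signs under siMUNC rest on a median next to 0: in the top 20% of gene means it was -0.03 in proliferating cells, on the same side as in differentiating cells (-0.19). Of the single members, Ndufs6 was at least 0.25 from 0 in opposite directions, both on differentiation (-0.46 in siMUNC and 0.27 in control cells) and with siMUNC (-0.34 in differentiating and 0.40 in proliferating cells). Its gap of -0.73 is the same number in both, since both take the same 4 arrays. None of these differences was tested, as there is 1 array per group.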

How the results depend on the processing

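No paired analysis was possible because each group has 1 array, and for the same reason no array could be left out. Over 20 summary results and their 8 alternatives, 144 values stayed close to those reported (a median within 0.1, a count or share within 1.5 times) and 16 differed, all of them small counts of expressed members past 0.5. Among the medians, that for siMUNC in proliferating cells, 0.01 as reported, was on the other side of 0 in the top 20% of gene means (-0.03). On differentiation of control cells the count of higher members, 0 as reported, was 1 after centring, 1 after quantile normalization and 2 after cyclic loess, and that of lower members, 0 as reported, was 1 with no filter. On differentiation of siMUNC cells the count of lower members, 2 as reported, was 1 after quantile normalization, 0 after cyclic loess, 1 with the offset and 1 in the top 20% of gene means. For siMUNC in proliferating cells the count lower, 0 as reported, was 1 with no filter. For siMUNC in differentiating cells the count lower, 1 as reported, was 3 after centring and 3 after cyclic loess. For the difference of effects the count lower, 2 as reported, was 4 after centring, 5 after quantile normalization, 1 with the offset and 0 in the top 20%, and the count higher, 0 as reported, was 1 with no filter. The counts with no filter or in the top 20% differ through the members they add or leave out; otherwise the cause was not tested. No member matched by the rule was other than a structural subunit, and none had several clusters, so these alternatives left the members as they were. For siMUNC minus control in differentiating cells, the median difference of the members less that of all expressed genes was -0.25 to -0.22 under the 4 other scalings. Signal over background, unknown here, limits the dim members most.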
